A study of Mus musculus with 16 samples.

Results

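Immediate early genes are the genes that neurons switch on within minutes of being stimulated, before any new protein is made. Under this name, 34 activity-induced genes were followed in dopamine D1 receptor-bearing medium spiny neurons of the mouse striatum with and without miR-128-2. Not all of them meet that definition (Jund, for example, is made steadily). They were chosen by gene symbol as known activity-induced transcription factors and effectors. The arrays held 31 of the 34, on 55 of the 37112 probe sets tested, among 16207 genes. Fosl1, Egr4 and Atf3 had no probe set of their own in the annotation used and were not analysed here.

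Polysome-associated RNA was pulled down through a ribosome tag from D1 medium spiny neurons of dissected striatum and hybridised to Affymetrix mouse arrays, 1 array per mouse. The 9 deletion mice carried the ribosome tag in D1 neurons and lacked both copies of miR-128-2 in those neurons. The 7 control mice were age-matched littermates that carried the tag alone. All mice were C57BL6/J and 3 months old, and the labels name neither a stimulus nor the construct that confined the deletion to D1 neurons, so anything else that came with the deletion cannot be told apart from it. The work ran as 2 experimental repeats, with 4 deletion and 5 deletion mice in repeats 1 and 2, against 4 control and 3 control mice. Replicates were labelled biological. The deposited values are log2 expression centred on each probe set's median over the 16 arrays, so that 0 is that median, a difference of 1 is a 2-fold ratio, and no absolute level is known. The number of arrays limits the precision.

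In a resting neuron most immediate early genes are held at a low level. Calcium entry and dopamine D1 receptor signalling through cAMP and ERK activate the factors CREB, SRF and MEF2 on their promoters, and the transcription factors made first (the AP-1, EGR, NR4A and NPAS4 proteins) then act on later genes that change synapses. In D1 medium spiny neurons these genes are known for their response to dopamine and to psychostimulant drugs. miR-128 is a microRNA enriched in the brain and abundant in neurons.

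The microRNA is shown because the deletion took out 1 of the genes that encode it. Mature mmu-miR-128-3p lies at chr9:112118644-112118664 on the minus strand of GRCm38.p6 in the Mir128-2 copy, and Mir128-1, which the labels do not list as deleted, gives the same mature sequence in RefSeq. Its seed (bases 2 to 8) is in capitals in the first line, and the whole mature strand is in capitals in the 76-base Mir128-2 hairpin.
mmu-miR-128-3p: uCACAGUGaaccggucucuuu
Mir128-2 hairpin: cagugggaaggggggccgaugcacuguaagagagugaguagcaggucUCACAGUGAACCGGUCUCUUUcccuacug

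Promoter windows (250 bases before to 50 after the start, RefSeq, GRCm38.p6) were on hand for 22 of the 31 genes. Those of 4 genes on which the comparisons below turn follow, to show how unlike each other the promoters of the set are. Capitals mark the letters found by a search of both strands for TGACG, the core of the cAMP response element that CREB binds, for the whole element TGACGTCA that contains it, for the AP-1 site TGANTCA, for the SRF site called the CArG box, and for the EGR site GCGNGGGCG. The sequences run 5′ to 3′ along the gene, so a match on the other strand appears as its reverse complement.
Fos, chr12:85473640-85473939, plus strand: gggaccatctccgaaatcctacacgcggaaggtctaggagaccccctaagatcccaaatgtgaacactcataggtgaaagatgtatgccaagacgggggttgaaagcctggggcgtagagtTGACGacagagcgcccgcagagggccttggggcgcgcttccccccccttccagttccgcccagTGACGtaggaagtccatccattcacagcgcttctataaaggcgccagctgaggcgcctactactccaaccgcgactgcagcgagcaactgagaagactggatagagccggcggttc
Npas4, chr19:4989922-4990221, minus strand: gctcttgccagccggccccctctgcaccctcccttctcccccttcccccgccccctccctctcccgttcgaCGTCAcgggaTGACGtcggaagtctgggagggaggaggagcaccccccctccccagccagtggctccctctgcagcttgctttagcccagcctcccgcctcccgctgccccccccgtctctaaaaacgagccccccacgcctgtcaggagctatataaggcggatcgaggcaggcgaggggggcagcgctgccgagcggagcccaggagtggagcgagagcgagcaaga
Nr4a2, chr2:57123954-57124253, minus strand: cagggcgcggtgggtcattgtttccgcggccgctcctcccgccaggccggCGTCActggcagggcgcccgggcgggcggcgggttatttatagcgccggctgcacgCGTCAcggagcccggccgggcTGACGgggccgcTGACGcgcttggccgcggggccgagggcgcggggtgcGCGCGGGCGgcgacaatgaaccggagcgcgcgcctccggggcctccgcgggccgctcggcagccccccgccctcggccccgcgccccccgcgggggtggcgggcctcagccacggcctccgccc
Gadd45g, chr13:51846425-51846724, plus strand: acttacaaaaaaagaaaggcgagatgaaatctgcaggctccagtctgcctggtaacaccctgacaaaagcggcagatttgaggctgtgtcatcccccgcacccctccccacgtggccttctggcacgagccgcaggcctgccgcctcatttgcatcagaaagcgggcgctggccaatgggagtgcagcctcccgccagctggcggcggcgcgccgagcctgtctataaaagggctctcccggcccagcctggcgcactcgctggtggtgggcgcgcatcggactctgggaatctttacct
The Fos window held TGACG at positions -129 and -66 and the Npas4 window at -179 and -169, counted from the start, while the Gadd45g window held none of the 5 motifs. Nr4a2 had 4 TGACG matches (-200, -144, -123 and -111) and an EGR site at -74. At least 1 window of 15 of the 22 genes held TGACG, against 20.8% of all 32851 windows in the table. The counts for the other motifs were 2 of 22 genes against 1.79% of windows for TGACGTCA, 1 (Bdnf) against 7.81% for TGANTCA, 1 (Egr2) against 1.63% for the CArG box, and 9 against 5.55% for GCGNGGGCG. The gene counts pool several windows of some genes, so they are not on the same footing as the share of single windows, and a match is only a run of letters. Counted by single windows, some of which overlap, 19 of the 36 windows of these genes held TGACG. The other motifs were in 2 (TGACGTCA), 1 (TGANTCA), 4 (CArG box) and 9 (GCGNGGGCG) of the 36. Bases outside the windows were not searched, so a window without a motif does not show that the gene's promoter lacks it.

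Before the genes themselves, the arrays need 1 description. Drd1 and the other D1 markers were measured on every array, and the mean of the 7 D1 markers ran from -0.02 to 0.22 on deletion arrays and from -0.28 to 0.06 on control arrays. Being centred, the values cannot show that D1 markers are high in these samples. The 12 oligodendrocyte markers averaged -0.35 to 0.41 on deletion arrays and -0.32 to 1.51 on control arrays. Their highest values, 1.51 and 1.37, were on control replicate 3 of repeat 1 and control replicate 1 of repeat 2, which also had the highest microglial markers (0.73 and 0.79 in that order, against at most 0.26 elsewhere). They also had the lowest D1 markers (-0.19 and -0.28), and the highest D2 (0.56 and 0.54), astrocyte (0.48 and 0.36) and cortical neuron markers (0.45 and 0.52). A sign of RNA quality, the excess of 3′ over 5′ control probe sets (mean of actin and Gapdh, log2), ran from -0.36 to 1.17 on deletion arrays and from -0.66 to 1.82 on control arrays, the highest on control replicate 1 of repeat 2. These are called the 2 divergent control arrays below, and results that move without them are given both ways. Of the 7 D1 markers, 6 had a positive and 1 a negative deletion difference (median 0.20). By limma, 3 were higher at an unadjusted p under 0.05, against 4.97% of all genes, and 0 at an adjusted one. Their mean was 0.10 on deletion and -0.11 on control arrays, and -0.06 on control arrays without the 2. All 12 oligodendrocyte markers were lower in the deletion, but not on average without the 2 arrays (0.01 against -0.06 in controls). The part of cell composition in the genotype differences was not tested beyond leaving out arrays.

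No immediate early gene passed the test of deletion against control over all genes. The limma model with genotype and experimental repeat called 0 of the 31 genes at a Benjamini-Hochberg adjusted p under 0.05 (smallest 0.325), where 10 of all genes (0.0617%) were called. At an unadjusted p under 0.05, 1 gene was higher (Gadd45g, against 4.97% of all genes) and 2 were lower (Nr4a2 and Jund, against 3.71%). The differences of the 31 genes ran from -0.56 (Bdnf) to 0.57 (Fos) with a median of 0.05, against -0.00 for all genes. They were positive for 19 genes, or 61.3%, against 45.3% of all genes. In polysome RNA from tissue, fewer cells with a transcript and less of it per cell cannot be told apart, nor can transcription and ribosome loading.

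**Figure D1:**
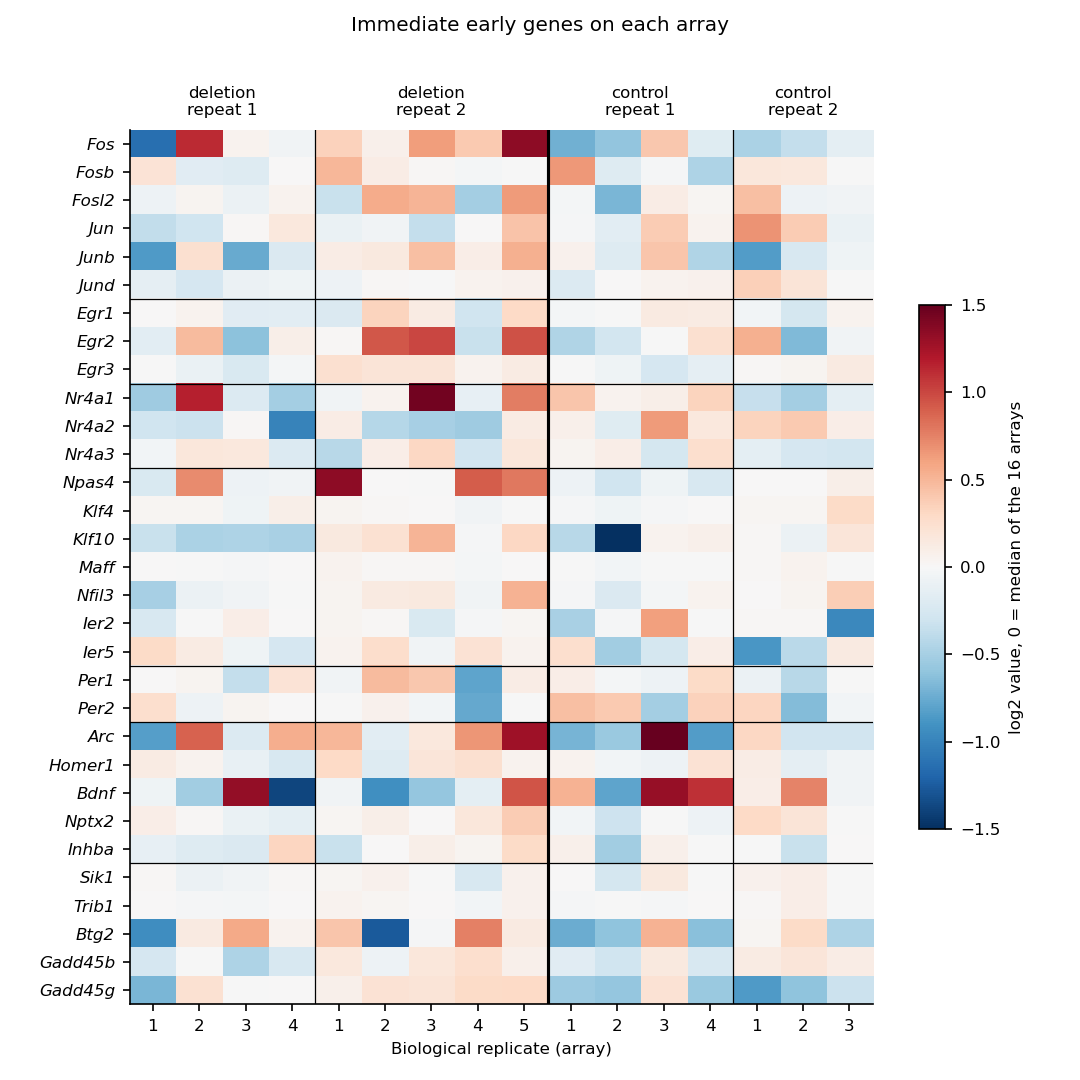
Log2 value of each of the 31 genes (rows, grouped by role) on each of the 16 arrays (columns, deletion left, control right), with 0 as the gene's median over the arrays and colours saturating at the ends of the scale. Fos, Nr4a1, Npas4, Arc, Bdnf and Btg2 show strong colours on single arrays of both or either genotype, while Maff, Trib1 and Klf4 stay near 0 throughout.

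**Figure D2:**
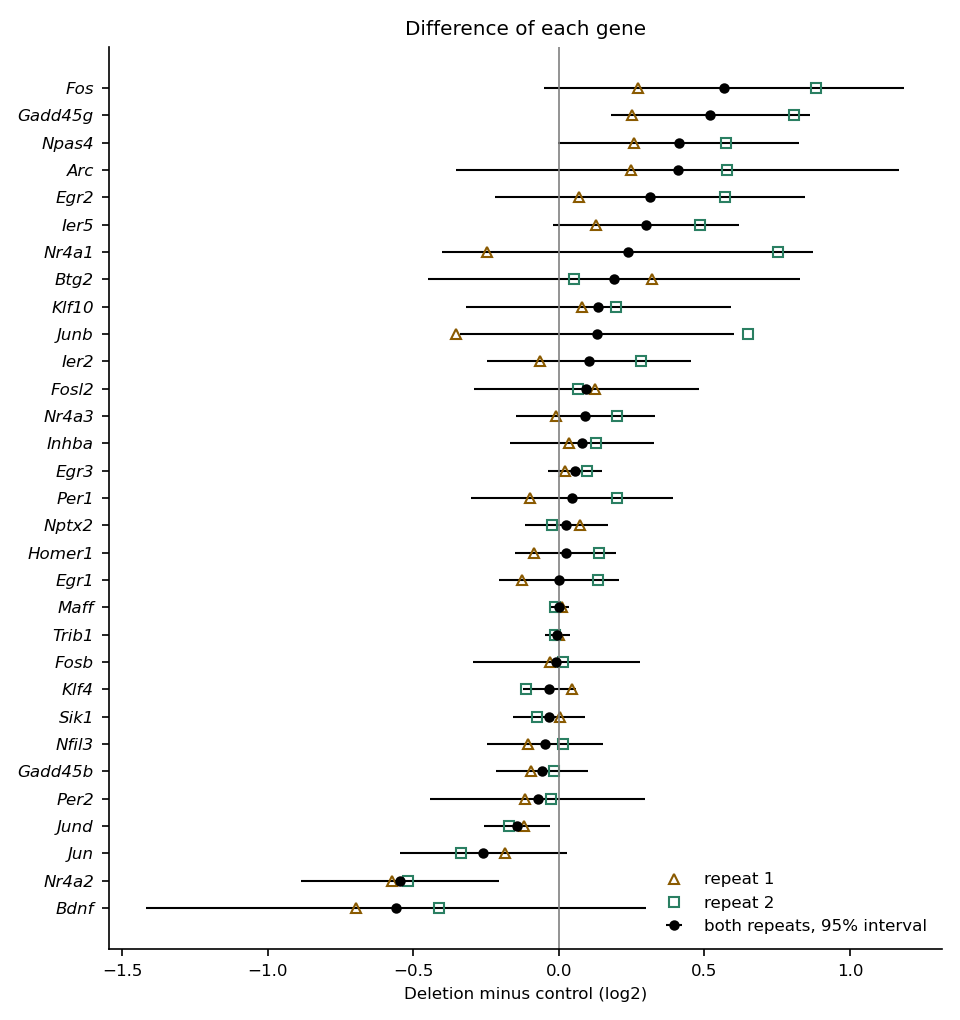
Deletion minus control on the log2 scale for each gene (rows, sorted), as the fitted difference over both repeats with its 95% interval (black) and within repeat 1 (triangles) and repeat 2 (squares). The intervals of Gadd45g, Nr4a2 and Jund leave out 0, before any adjustment over genes, and the squares of Fos, Gadd45g, Nr4a1 and Junb lie well right of their triangles.

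AP-1 is the dimeric factor built from a Fos and a Jun protein, and its 6 measured genes split 3 higher and 3 lower, with a median difference of 0.04. Fos, the most used marker of recent neuronal activity, read -1.13, 1.11, 0.06 and -0.06 on the deletion arrays of repeat 1 and 0.35, 0.08, 0.63, 0.40 and 1.34 on those of repeat 2. The control arrays read -0.72, -0.59, 0.40 and -0.19 in repeat 1 and -0.47, -0.36 and -0.15 in repeat 2. Every deletion array of repeat 2 was above every control array of that repeat, while in repeat 1 the deletion arrays held both the highest and the lowest value. The fitted difference was 0.57 ± 0.29 (SE), a 1.48-fold ratio with a 95% interval of 0.96 to 2.28 (unadjusted p = 0.0695, exact permutation p = 0.0857).

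Junb, a partner of Fos, was chosen for description after its values were seen, because its sign turned between the repeats. On the deletion arrays of repeat 1 it read -0.85, 0.24, -0.75 and -0.22, against 0.06, -0.19, 0.42 and -0.45 on control arrays. In repeat 2 it read 0.11, 0.14, 0.45, 0.10 and 0.53 on deletion arrays, against -0.84, -0.24 and -0.06 on control arrays. The groups overlapped in repeat 1 and did not in repeat 2, with differences of -0.35 and 0.65. Junb had the smallest interaction p of the set (unadjusted 0.0161, adjusted 0.934).

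Jund, the Jun family member that is made steadily and not only on stimulation, had a small negative difference. It averaged -0.05 ± 0.10 on deletion arrays (SD, n = 9) and 0.07 ± 0.17 on control arrays (SD, n = 7), and all 9 deletion arrays fell below the mean of the control arrays in their repeat. The difference of -0.14 ± 0.05 (SE) had an unadjusted p of 0.0172 and an adjusted p of 0.456. Jun averaged -0.06 ± 0.26 on deletion arrays and 0.18 ± 0.31 on control arrays (SD, n = 9 and 7), a difference of -0.26 ± 0.13 (SE, adjusted p = 0.625). Its relation to markers of other cells across arrays is given further down. Fosb, known for a stable splice form that builds up in striatal neurons after repeated stimulation, differed by -0.01 ± 0.13 (SE), and Fosl2 by 0.09 ± 0.18.

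The EGR genes encode zinc-finger factors that are induced with Fos. Egr1, in common use beside Fos as an activity marker, differed by 0.00 ± 0.10 (SE, 95% interval -0.21 to 0.21). Egr2 was among the most variable genes, with -0.61 to 1.00 on deletion arrays and -0.66 to 0.53 on control arrays. Its difference was 0.31 ± 0.25 (SE, adjusted p = 0.818), and its 3 highest arrays (0.93, 0.96 and 1.00) were all deletion arrays of repeat 2. Egr3 differed by 0.06 ± 0.04. This is the mean of a probe set at 0.11 and another at -0.00 that hardly varied (SD between arrays of a group 0.01).

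The NR4A genes encode orphan nuclear receptors that act without a classical ligand, and they went in different directions. Nr4a2 (Nurr1), best known for the making and upkeep of midbrain dopamine neurons, had the smallest p of the set and a negative difference. The deletion arrays read -0.30, -0.32, 0.02 and -1.0 in repeat 1 and 0.11, -0.43, -0.49, -0.53 and 0.13 in repeat 2. The control arrays read 0.08, -0.18, 0.64 and 0.16 in repeat 1 and 0.33, 0.39 and 0.10 in repeat 2. All 9 deletion arrays were below the mean of the control arrays run in the same repeat, although single arrays overlapped in both repeats. The difference was -0.55 ± 0.16 (SE), a ratio of 0.69 with a 95% interval of 0.54 to 0.87, and it was alike in repeat 1 (-0.57) and repeat 2 (-0.52). The unadjusted p was 0.00399, the exact permutation p was 0.00459 and the adjusted p over all genes was 0.325.

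Nr4a2 had 6 probe sets, and all 6 had a negative difference. The 4 that varied between arrays gave -0.99, -0.88, -0.71 and -0.64, each with an unadjusted p under 0.05, and the other 2, at -0.05 and -0.01, varied hardly at all (SD between arrays of a group below 0.075). Averaging all 6 therefore gives a smaller difference than the 4 varying probe sets show. Of the 55 probe sets of all the genes followed, 12 had an SD below 0.075. Over the 55 probe sets of the set, 7 had an unadjusted p under 0.05 (6.84% of all probe sets did) and 0 an adjusted one (0.0323%). In the authors' deposited table, 6 of the 55 had a genotype p under 0.05, against 6.16% of all probe sets, and they were the same 4 of Nr4a2 with Gadd45g and Jund.

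Nr4a1 (Nur77), induced by dopamine receptor signals in the striatum, varied more between deletion mice than between control mice. Deletion arrays read -0.53, 1.17, -0.21 and -0.51 in repeat 1 and -0.05, 0.05, 1.44, -0.13 and 0.77 in repeat 2. Control arrays read 0.42, 0.05, 0.09 and 0.34 in repeat 1 and -0.35, -0.51 and -0.14 in repeat 2. The SD between arrays of a group was 0.73 in deletion mice and 0.18 in control mice. The difference was -0.25 in repeat 1 and 0.75 in repeat 2, and 0.24 ± 0.30 (SE) over both. The limma interaction had an unadjusted p of 0.0938 and an adjusted p of 0.934. Nr4a3 differed by 0.09 ± 0.11, as the mean of a probe set at 0.20 and another at -0.01 that hardly varied (SD 0.03).

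**Figure D3:**
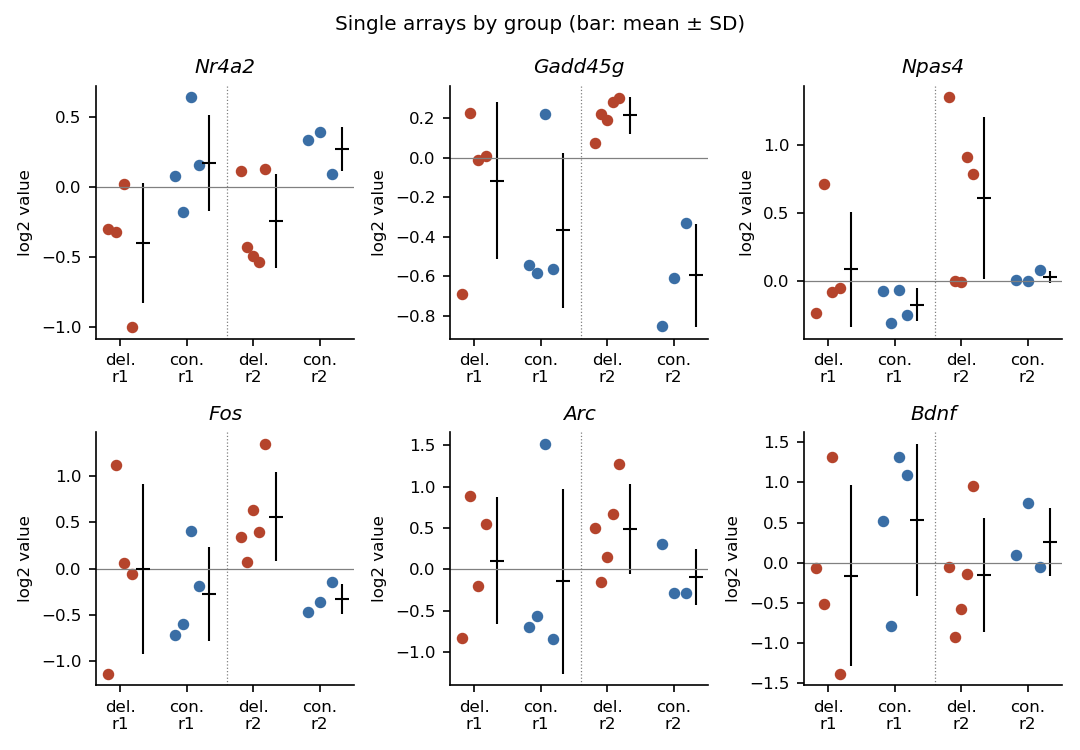
Log2 value of 6 genes on single arrays, with deletion (red) left of control (blue) within repeat 1 (r1) and repeat 2 (r2), and the mean ± SD of each group in black. On average Nr4a2 lies lower and Gadd45g higher in the deletion in both repeats, and 4 deletion arrays stand high in Npas4, where the control arrays lie close together.

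Of the other induced transcription factors, Npas4 is the one that responds to calcium entry almost alone and shapes inhibitory synapses. It read -0.23, 0.71, -0.08 and -0.05 on deletion arrays of repeat 1 and 1.34, 0.00, -0.00, 0.91 and 0.79 on those of repeat 2. Control arrays stayed between -0.30 and 0.08. The 4 high arrays were thus all from deletion mice, and the other 5 deletion arrays lay within the control range. The SD between arrays of a group was 0.53 in deletion and 0.10 in control mice, the highest such ratio in the set. The difference was 0.41 ± 0.19 (SE, unadjusted p = 0.0515, adjusted p = 0.576).

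Klf10, a zinc-finger repressor also induced by TGF-beta, differed more between repeats than between genotypes. Its deletion arrays lay between -0.49 and -0.33 in repeat 1 and between -0.02 and 0.51 in repeat 2. The control arrays read -0.41, -1.78, 0.05 and 0.07 in repeat 1, with replicate 2 far below, and -0.09 to 0.18 in repeat 2. The genotype difference of 0.14 ± 0.21 (SE) turned to -0.06 without that control array. Ier5, an early gene with a role in the heat shock response, had a positive difference that did not pass. It averaged 0.07 ± 0.18 on deletion arrays and -0.22 ± 0.41 on control arrays (SD, n = 9 and 7), a difference of 0.30 ± 0.15 (SE, adjusted p = 0.601), and 0.15 without the 2 divergent control arrays. Nfil3 differed by -0.05 ± 0.09 and Ier2 by 0.10 ± 0.16. Klf4 (-0.03), Maff (-0.00) and, from the last group, Trib1 (-0.00) had an SD below 0.075 between arrays of a group, so that little could be read from them. The clock genes Per1 and Per2, which neuronal activity also induces through CREB, differed by 0.05 ± 0.16 and -0.07 ± 0.17.

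The effectors carry the activity signal to the synapse. Arc, whose protein removes AMPA receptors from synapses, read -0.82, 0.89, -0.20 and 0.55 on deletion arrays of repeat 1 and 0.50, -0.16, 0.16, 0.67 and 1.28 on those of repeat 2. The control arrays read -0.69, -0.56, 1.52 and -0.84 in repeat 1 and 0.31, -0.29 and -0.29 in repeat 2. The highest Arc value of all was on control replicate 3 of repeat 1, a divergent array. The difference was 0.41 ± 0.36 (SE, adjusted p = 0.851), and 0.79 without the 2 divergent control arrays. Bdnf, the neurotrophin that striatal neurons are known to receive largely from cortical axons, read -0.06, -0.52, 1.32 and -1.38 on deletion arrays of repeat 1 and -0.05, -0.92, -0.58, -0.15 and 0.95 on those of repeat 2. Control arrays read 0.52, -0.79, 1.31 and 1.10, and 0.10, 0.74 and -0.05, in the same order of repeats. Bdnf had both the largest negative difference of the set, -0.56 ± 0.40 (SE, adjusted p = 0.784), and the largest spread, so the groups overlapped throughout. The remaining effectors lay near 0, with 0.02 ± 0.08 for the scaffold gene Homer1, 0.03 ± 0.07 for the pentraxin gene Nptx2 and 0.08 ± 0.11 for the activin subunit gene Inhba. The Homer1 value is a mean of 6 probe sets that differed, 4 positive and 2 negative, from -0.23 to 0.19. The probe set at 0.16 had an unadjusted limma p of 0.0455. Which transcript form each probe set reads was not examined, so the mean does not show that every form was unchanged.

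Among genes of growth arrest and feedback, Gadd45g, a stress sensor also linked to active DNA demethylation, had a positive difference. The deletion arrays read -0.69, 0.22, -0.01 and 0.01 in repeat 1 and 0.07, 0.22, 0.19, 0.28 and 0.30 in repeat 2. The control arrays read -0.55, -0.58, 0.22 and -0.56 in repeat 1 and -0.85, -0.61 and -0.33 in repeat 2. In repeat 2 the groups did not overlap, and in repeat 1 deletion replicate 1 and control replicate 3 each lay with the other group. The difference was 0.52 ± 0.16 (SE), a 1.43-fold ratio with a 95% interval of 1.13 to 1.82 (unadjusted p = 0.00549, exact permutation p = 0.00918, adjusted p = 0.346). Its relatives and companions showed less, with -0.06 ± 0.07 for Gadd45b and 0.19 ± 0.30 for the antiproliferative Btg2, and -0.03 ± 0.06 for Sik1, a kinase that restrains CREB coactivators.

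The repeats were then set side by side. The median difference of the 31 genes was 0.00 in repeat 1 and 0.10 in repeat 2, and the difference was larger in repeat 2 for 22 genes (71%, against 39.9% of all genes). No gene's deletion and control arrays were fully apart in repeat 1 (2.96% of all genes were), and 4 were in repeat 2 (4.13% of all genes), namely Fos, Junb, Nr4a1 and Gadd45g, all higher in the deletion. For Nr4a1 the gap was narrow, with -0.13 as the lowest deletion value and -0.14 as the highest control value. The interaction test called 0 of the 31 genes (0% of all genes at an adjusted p under 0.05) and gave 1, Junb, an unadjusted p under 0.05 (4.22% of all genes). A difference between the repeats in the effect of the deletion was therefore not shown.

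The experimental repeat itself was the comparison with calls. Of the 31 genes, 4 were higher in repeat 2 than in repeat 1 at an adjusted p under 0.05, against 7.84% of all genes, and 0 were lower, against 7.1%. They were Gadd45b (0.32 ± 0.07, adjusted p = 0.00826), Egr3 (0.22 ± 0.04, adjusted p = 0.00352), Nptx2 (0.21 ± 0.07, adjusted p = 0.0452) and Jund (0.17 ± 0.05, adjusted p = 0.0459), with Egr3 and Nptx2 named after their values were seen. Gadd45b averaged 0.12 ± 0.12 and 0.14 ± 0.04 in deletion and control mice of repeat 2, against -0.24 ± 0.19 and -0.14 ± 0.20 in those of repeat 1 (SD). Klf10 had a larger difference that did not pass, 0.62 ± 0.21 (adjusted p = 0.0631). The count was 2 without the 2 divergent control arrays, where 1201 of all 16207 genes were higher and 1042 lower.

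Many of these genes varied widely between mice of the same group. The SD between arrays of a group had a median of 0.30 over the 31 genes, against 0.15 over all genes. It lay above the 90th percentile of all genes (0.33) for 14 of the 31, or 45.2%, where 10% is given by the definition. Bdnf (0.86), Arc (0.76), Btg2 (0.64), Fos (0.60), Nr4a1 (0.57) and Egr2 (0.52) led, at percentiles of 98.1 to 99.8 of all genes. The count was 13 without the 2 divergent control arrays and between 11 and 14 without any single array. With each gene read by its most variable probe set it was 11, and with quantile normalization 16. A wide spread was not particular to these genes. Above the same percentile lay 11 of 12 oligodendrocyte, 5 of 7 cortical neuron, 4 of 5 interneuron and 5 of 10 astrocyte markers. It held for 8 of 33 other activity-induced genes and 2 of 18 upstream factors, and for 0 of 7 D1 markers. The SDs were not tested against those of other genes, and the brightness of a probe set, which bears on how much array values vary, is not known from centred values.

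**Figure D4:**
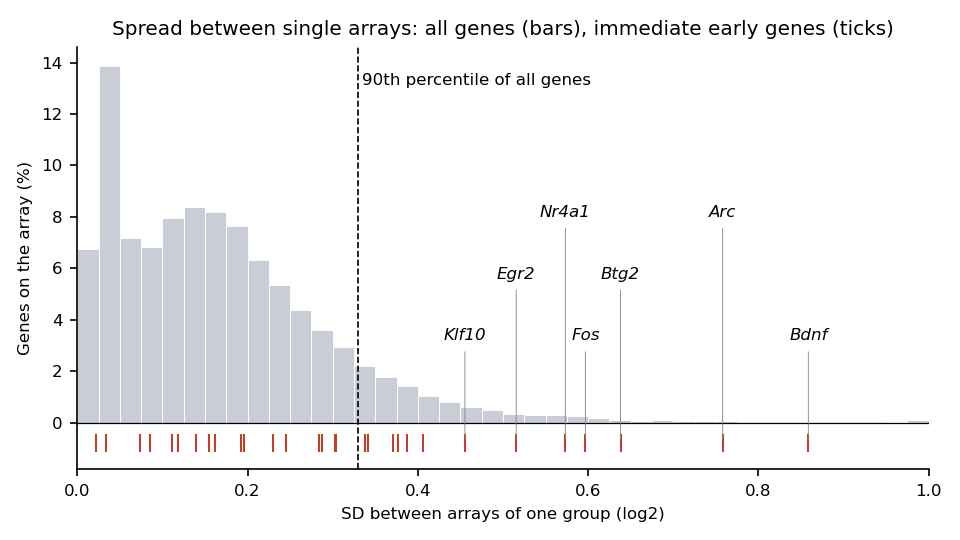
Share of all 16207 genes (bars) by the SD of their log2 values between arrays of a group, with genes at or above the end of the axis in the last bar, and the 31 immediate early genes as red ticks below. A dashed line marks the 90th percentile of all genes, and 14 ticks lie right of it, with the 7 farthest named.

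The spread was not larger in one genotype throughout. It was larger in deletion mice for 14 of the 31 genes. Beside Npas4 and Nr4a1, Per1 (0.41 in deletion, 0.19 in control) and Egr1 (0.23 and 0.12 in that order) were wider in the deletion. Ier2 (0.13 in deletion and 0.50 in control mice), Klf10 (0.16 and 0.68) and Jund (0.07 and 0.15) were wider in control mice. For Klf10 the control spread came from the single low array named above. No test was made of these ratios.

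To see whether the genes were high on the same arrays, each of the other 30 was compared with Fos over the 16 arrays, as deviations from the mean of an array's own group. Fos correlated positively with 21 of them (70%, median r = 0.26), against 42.1% of all 16206 other genes on the array (median r = -0.06), a description over genes that are not independent of each other. Gadd45g (Pearson r = 0.79, adjusted p = 0.0291 by permutation within groups, over 30 relations; Spearman rho = 0.66, adjusted p = 0.129) and Arc (r = 0.76, adjusted p = 0.0465; rho = 0.61, adjusted p = 0.156) passed by Pearson's r, and 0 relations passed by Spearman's rho. Junb (r = 0.72, permutation adjusted p = 0.0709) and Nfil3 (r = 0.67, adjusted p = 0.142) followed, and Npas4 had an r of 0.45.

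On leaving out either of 2 pairs of arrays, the r of Gadd45g and Arc lay between 0.66 and 0.82, and neither gene passed. The 2 arrays farthest from the others in Fos were deletion replicates 1 and 2 of repeat 1, at -1.13 and 1.12 from their group mean. Without them r was 0.66 for Gadd45g and 0.71 for Arc, with an adjusted p of 0.305 for both by permutation. Spearman's rho without them was lower, at 0.50 for Gadd45g and 0.44 for Arc. Without the 2 divergent control arrays r was 0.81 and 0.82 in that order, with a permutation adjusted p of 0.222 for both. Within genotypes, r with Fos was 0.84 in deletion and 0.88 in control mice for Gadd45g, and 0.86 and 0.75 in that order for Arc. The control values of r include the divergent control replicate 3 of repeat 1. It had the highest Fos (0.40), Arc (1.52) and Gadd45g (0.22) of all control arrays. The r within control mice was not computed without it, so it does not show a relation among the other control mice. Within repeats 1 and 2 it was 0.89 and 0.41 for Gadd45g, and 0.78 and 0.67 for Arc.

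**Figure D5:**
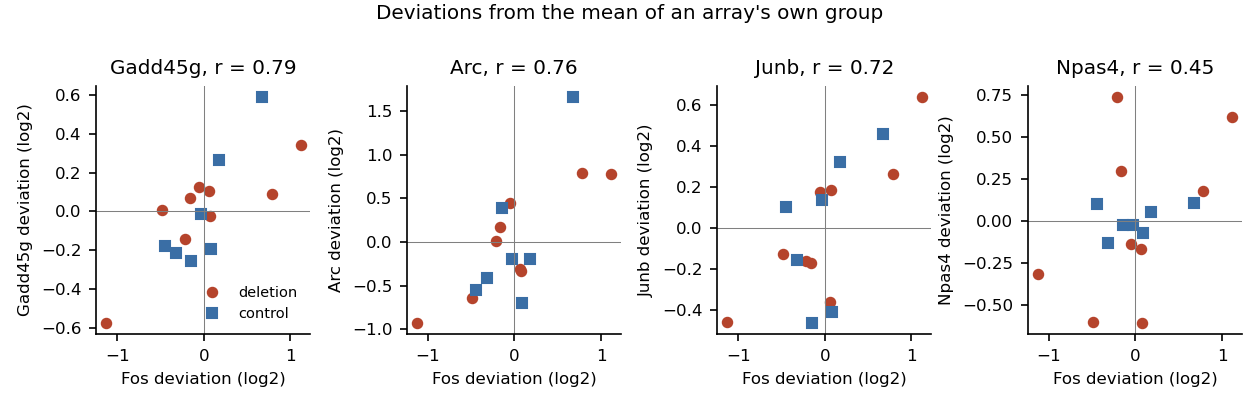
Deviation of Gadd45g, Arc, Junb and Npas4 (vertical axes, log2) against that of Fos (horizontal axes, log2) from the mean of each array's own group, for deletion (circles) and control arrays (squares), with Pearson's r over the 16 arrays. The points at either end of the Fos axis are deletion arrays of repeat 1, and Npas4 shows no steady rise.

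Markers of other cells varied between arrays, and the 31 genes were compared with them in 62 relations, of which 0 passed by Pearson's r and 2 by Spearman's rho. The 7 cortical neuron markers averaged -0.57 to 0.21 on deletion arrays and -0.53 to 0.52 on control arrays. All 7 had a negative deletion difference, where 45.3% of all genes had a positive one. By limma, 2 of the 7 were lower at an unadjusted p under 0.05, against 3.71% of all genes. Their mean was -0.12 on deletion and 0.07 on control arrays, and -0.10 on control arrays without the 2 divergent ones. Across arrays, as deviations from group means, Nr4a2 followed the cortical markers with r = 0.74 (rho = 0.70, permutation adjusted p = 0.0763 and 0.0755). Its r was 0.52 without the 2 farthest arrays and 0.67 without the 2 divergent control arrays. Bdnf did so with r = 0.74 (rho = 0.72, permutation adjusted p = 0.0817 and 0.0755), and with 0.56 and 0.81 under the same omissions. Egr3 ran the other way, with r = -0.74 (rho = -0.68, permutation adjusted p = 0.089 and 0.105), and -0.41 and -0.61 under the same omissions. Ier2 and Jun passed by Spearman's rho, at 0.88 and 0.80 (permutation adjusted p = 0.0251 for both), but not by Pearson's r (0.75 and 0.73, adjusted p = 0.13 and 0.0763). Without the 2 farthest arrays their r was 0.67 and 0.75, and without the 2 divergent arrays 0.55 and 0.63. With the oligodendrocyte markers, taken over the 14 arrays without the divergent ones because those form a cluster of their own, Jund had r = 0.78 and Jun r = 0.76 (permutation adjusted p = 0.129 and 0.0763), and 0.70 and 0.76 without the 2 farthest. These relations were looked for after the values had been seen, and the part of other cells in the differences of Nr4a2, Bdnf, Jun and Jund was not tested beyond leaving out the 2 divergent arrays, which gave -0.45 for Nr4a2, -0.46 for Bdnf, -0.12 for Jun and -0.09 for Jund.

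Genes around the pathway gave no calls either. Of 18 measured upstream factors, which include CREB, SRF, MEF2 and their coactivators, 7 had a positive and 11 a negative difference and 0 passed the test. At an unadjusted p under 0.05, Atf2 was higher (0.24 ± 0.10, SE), and the SRF coactivator gene Mrtfa (-0.55 ± 0.19) and the acetyltransferase gene Ep300 (-0.31 ± 0.14) were lower (adjusted p at least 0.422 for the 3). Of 33 other activity-induced genes, such as dual-specificity phosphatases and Sprouty genes that damp ERK signalling, 20 had a positive and 13 a negative difference with a median of 0.01, and 0 passed. Rgs2 (0.17 ± 0.07) and Fbxo33 (0.37 ± 0.16) were higher at an unadjusted p under 0.05. Beside both lists, 4.97% of all genes were higher and 3.71% lower at that p. Crem is in both lists.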

How the data were processed

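The authors deposited log2 expression values of 16 arrays; GCOS 1.4 and GCRMA appear, without a role, in the submitters' processing notes. Each probe set's median over the arrays is 0 to within 1e-06, so the values were centred, and no filter on brightness was possible. A deposited p-value per probe set comes, per the file headers, from the authors' 2-factor model (its genotype term); the 16 columns of per-animal values in that table were not used.

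Arrays were grouped by genotype and experimental repeat from their titles. Without the 62 control probe sets, which were dropped, the table held 37112. Of these, as GEO's platform annotation has it, 29680 name 1 gene, 819 several and 6613 none, and 29539 were matched to RefSeq symbols (GRCm38.p6). A gene was the mean of its probe sets with 1 gene. Genotype differences came from limma 3.58.1 (R 4.3.3; lmFit, then eBayes; genotype and repeat as terms, two-sided, Benjamini-Hochberg over 16207 genes or 37112 probe sets), with calls at an adjusted p under 0.05. The interaction was tested in a model with 4 group means. Beside these stood a two-sided exact permutation of genotype within repeats, 3920 regroupings, per gene, with a smallest p of 0.00026. Correlations used deviations from group means with 100000 two-sided permutations within groups (Python 3.11.15, NumPy 2.4.6, pandas 2.3.3, and Matplotlib 3.10.9 for figures). Promoter and microRNA sequences are RefSeq's.

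The members and gene lists were chosen with earlier results of these data known. Array or group values are given for Fos and for the genes with the smallest p, the largest spread and the largest repeat difference, 15 in all; Junb, Egr3, Nptx2, and the SDs of Per1, Egr1 and Ier2, were added after their values were seen. The limma and correlation steps were tested on simulated data. Of 7 same-numbered pairs of deletion and control arrays, 3 deviated together (r from -0.30 to 0.43 over the 7), so the numbers were not taken as pairs. Alternatives were other gene summaries, scalings and variance models, array weights, a minimum SD of 0.075, a replicate block, and leaving out arrays.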

Additional observations from a re-analysis of the deposited data

Results flagged for a closer look

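Within groups of 4 or 5 arrays, 10 of 93 combinations of gene and group held 1 array whose gap to the next filled most of the group's range (Dixon's test at its 95% critical value, which flags about 1 group in 20 by chance). Control replicate 3 of repeat 1, a divergent array, accounted for 4 of them: Arc at 1.52, Btg2 at 0.52, Gadd45g at 0.22 and Per2 at -0.51. Deletion replicate 4 of repeat 2 was low in Per2 (-0.77) and Sik1 (-0.24). The others were Fosb at 0.50 on deletion replicate 1 of repeat 2, Ier2 at -0.23 on deletion replicate 3 of repeat 2, Nfil3 at -0.50 on deletion replicate 1 of repeat 1 and Inhba at -0.52 on control replicate 2 of repeat 1. All values are log2 with 0 as the median of the 16 arrays.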

How the results depend on the processing

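With the alternatives run, the count of immediate early genes called between deletion and control stayed at 0, and so did those of probe sets and of the interaction. The replicate block gave 0 called, 4 genes at an unadjusted p under 0.05 and a median difference of 0.03. Of all 16207 genes it gave 703 higher and 647 lower at that p. In the arrays, 3 of 7 deletion arrays correlated best with the control array of their own number. The count at an unadjusted p under 0.05, 3 as reported, was 5 with array weights and 2 to 6 without any single array. It was 6 without deletion replicate 4 of repeat 1, and 5 without deletion replicate 1 of repeat 1, control replicate 3 of repeat 1 or control replicate 3 of repeat 2. The number over all 16207 genes moved too. As reported, 806 were higher and 602 lower at that p, against 885 and 832 with array weights. Without deletion replicate 4 of repeat 1 the numbers were 1037 and 780. Of all genes, 1271 were higher and 1150 lower in repeat 2 as reported, and 967 and 1271 with each array centred on its median. Without the 2 divergent control arrays 1201 were higher and 1042 lower. The count of immediate early genes between repeats, 4 as reported, was 2 with each array centred on its median, 2 without the 2 divergent control arrays and 2 to 4 without any single array. It was 2 without any 1 of deletion replicates 2, 4 and 5 of repeat 2, deletion replicates 2 and 3 of repeat 1, control replicates 1 and 2 of repeat 2, and control replicate 1 of repeat 1. The relations with Fos that passed, 2 as reported, were 0 without the 2 divergent control arrays and 0 without the 2 arrays farthest in Fos, while r was 0.81 and 0.82, and 0.66 and 0.71, for Gadd45g and Arc with those fewer arrays. The Klf10 difference reversed to -0.057 with array weights and to -0.062 without control replicate 2 of repeat 1 (0.23 at its highest without a single array), and that of Nfil3 to 0.011 without deletion replicate 1 of repeat 1 (-0.092 at its lowest). The cause was not tested. The difference of Nr4a2 ran from -0.99 (its most variable probe set) to -0.45 and that of Gadd45g from 0.43 to 0.64, with smallest adjusted p of 0.179 and 0.2. Uncalled differences that moved by over 1.5 times on leaving out single arrays were those of Ier5 (0.17 without control replicate 1 of repeat 2, and 0.11 with array weights), Egr2 (0.15 without control replicate 2 of repeat 2), Bdnf (-0.35 without deletion replicate 4 of repeat 1), Arc (0.68 without control replicate 3 of repeat 1), Nr4a1 (0.09 to 0.36 over all arrays left out), Btg2 (0.08 to 0.34) and Gadd45b (-0.09 to -0.01). The authors' deposited genotype p lay under 0.05 before adjustment for Gadd45g and for 4 probe sets of Nr4a2. The alternatives for spread, and the relations with cell type markers, were added after seeing the data. Unknown signal over background and 7 control arrays limit all of these.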
